A study of Mus musculus with 2 samples.

Results

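Clustered histone genes were examined in sorted mouse thymus cells. The members were all rows of the deposited gene tables whose symbol begins with Hist1h, Hist2h, Hist3h or Hist4h, 62 of 20451 genes. They comprise 6 H1 linker histone genes, 16 H2A, 16 H2B, 12 H3 and 12 H4 genes. In the GENCODE M21 annotation (mm10), 50 lie on chromosome 13 (the Hist1 cluster), 9 on chromosome 3 (Hist2), 2 on chromosome 11 (Hist3) and 1 on chromosome 6 (Hist4h4). The cells came from mice aged 7 weeks, and the comparison was between wild type (hashtag B6WT, WT below) and Mgl2DTR_eGFP (hashtag Mgl2DTR). Mgl2DTR_eGFP mice carry the diphtheria toxin receptor with eGFP under control of Mgl2, so that the toxin kills cells in which Mgl2 is active. They received 500 ng of the toxin, with a time of 48 h. Whether the WT mice were also given toxin is left unsaid by the labels, and so is the number of mice in each pool. Cells bearing CD90.2 were removed with magnetic beads, after which live cells were sorted on a CD11c and CD11b stain. All cells were run as 1 pool on the 10x Chromium 3′ version 3 kit, with a second library for the antibody hashtags. Each genotype is therefore 1 sample and no test between genotypes can be made. Every interval below is a 95% exact interval that covers counting error only. The 2 libraries compared below are the cells of each genotype by hashtag call within this pool. By the labels they are not separate preparations.

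Replication-dependent histone mRNAs are made in S phase, when newly copied DNA needs new nucleosomes. H2A, H2B, H3 and H4 form the nucleosome core and H1 binds the linker DNA between cores. Most of these mRNAs end in a conserved stem-loop, bound by the stem-loop binding protein Slbp, and carry no poly(A) tail. Some members are also made as longer polyadenylated mRNAs in cells that do not divide. The 3′ kit primes on poly(A), so a UMI (1 captured mRNA molecule) reports tailed or internally primed copies, and the levels below are levels of captured mRNA.

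WT gave 11586 cells with 116719748 UMIs (median 7820 a cell) and Mgl2DTR gave 7433 cells with 71521759 UMIs (median 6930). A further 9829 cells called as 2 hashtags and 78 called as none were left out, and the 2 gene tables shared 0 barcodes. The Mgl2 level over all cells was 109 CPM (UMIs per 1000000) for the WT cells but 17.9 CPM for those of Mgl2DTR. The labels call the cells thymocytes, but cells that carried T cell or thymocyte markers numbered 2235 in WT and 482 in Mgl2DTR. The rest were dendritic (cDC1-like, cDC2-like, activated DC-like, pDC-like), macrophage-, monocyte-, neutrophil-, B cell- or NK-like, or lay in unnamed clusters. Cells were classed from 21 genes of S phase and 37 of G2/M phase with no histone gene among them. Cells with at least 20 such UMIs per 10000 were cycling, 2035 in WT and 1270 in Mgl2DTR, and cells under 5 were resting, 7294 and 4702.

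The stem-loop is printed first because the members' annotated 3′ ends go with where they were seen. It was searched for after the stop codon of each GENCODE M21 model, with at most 2 mismatches to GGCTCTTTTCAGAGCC, and was present in 39 members, 21 to 58 bases after the stop. Each line gives 1 member, 5′ to 3′, with the 16-base element in capitals and its flanks in lower case.
Hist1h2ae: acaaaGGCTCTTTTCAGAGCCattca
Hist1h2ap: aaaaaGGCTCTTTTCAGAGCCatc
Hist1h1c: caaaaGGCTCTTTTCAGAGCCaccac
Hist3h2a: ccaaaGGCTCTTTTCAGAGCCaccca
Hist3h2ba: ccaaaGGCTCTTTTCAGAGCCacctt
Hist1h3c: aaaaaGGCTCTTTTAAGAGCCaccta
Hist2h2ac: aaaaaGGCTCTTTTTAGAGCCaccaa
Hist1h3g: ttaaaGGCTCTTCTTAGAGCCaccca
Hist1h4d: ccaaaGGCCCTTTTCAGGGCCactac
Hist4h4: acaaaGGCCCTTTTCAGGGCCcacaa
The exact element was found in 25 members: 3 H1, 9 H2A, 8 H2B, 5 H3 and 0 H4 genes. Counting from 1 at its 5′ end, all 6 H4 genes with an element carried T4C and A13G, a paired change in the stem (Hist1h4c, Hist1h4d, Hist1h4f, Hist1h4h, Hist1h4n and Hist4h4). C10A, in the loop, was carried by 6 members, among them Hist1h3c, Hist1h3e, Hist1h3f, Hist1h2bb and Hist1h2bk. C10T was carried by Hist2h2ac, and T8C with C10T by Hist1h3g. The models of 13 members end at the stop codon, and none was found in 10 others, which include Hist1h2bc, Hist2h2be and Hist1h2br. Hist1h2ae (chr13:23570517-23571220, minus strand), Hist1h2ap (chr13:21833026-21833507, minus), Hist1h1c (chr13:23738808-23740367, plus), Hist3h2a (chr11:58954685-58956830, plus) and Hist4h4 (chr6:136801553-136804415, minus) have models of 1 exon. Hist1h2bc (chr13:23684199-23692908, plus) has 2 exons.

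Promoters are shown for 4 members that the results below turn on, as RefSeq gives them on GRCm38.p6, from 250 bases before to 50 bases after the start on the gene's strand. Capitals mark CCAAT (a box bound by NF-Y), TATAAA (the TATA box) and ATTTGCAT (the octamer bound by Oct1), each on either strand.
Hist1h2ap (chr13:21833426-21833725, minus): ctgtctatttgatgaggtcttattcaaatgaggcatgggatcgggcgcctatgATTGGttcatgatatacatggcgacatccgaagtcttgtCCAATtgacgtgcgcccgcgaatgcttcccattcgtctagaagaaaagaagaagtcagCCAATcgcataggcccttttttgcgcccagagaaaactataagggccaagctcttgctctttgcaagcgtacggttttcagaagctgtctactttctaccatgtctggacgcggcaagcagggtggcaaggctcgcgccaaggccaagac
Hist1h2ae (chr13:23571171-23571470, minus): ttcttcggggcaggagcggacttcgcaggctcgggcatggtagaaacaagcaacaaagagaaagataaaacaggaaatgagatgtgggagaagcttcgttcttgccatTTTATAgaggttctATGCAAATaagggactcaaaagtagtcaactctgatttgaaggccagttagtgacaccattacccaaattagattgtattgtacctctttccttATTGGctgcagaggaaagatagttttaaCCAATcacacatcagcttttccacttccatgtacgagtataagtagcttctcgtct
Hist1h4d (chr13:23581318-23581617, plus): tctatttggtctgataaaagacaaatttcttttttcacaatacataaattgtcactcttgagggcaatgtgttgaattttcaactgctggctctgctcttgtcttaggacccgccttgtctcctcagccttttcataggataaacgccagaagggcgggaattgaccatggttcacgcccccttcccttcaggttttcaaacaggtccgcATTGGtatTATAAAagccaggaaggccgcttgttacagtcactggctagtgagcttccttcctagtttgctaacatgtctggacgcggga
Hist3h2ba (chr11:58948661-58948960, plus): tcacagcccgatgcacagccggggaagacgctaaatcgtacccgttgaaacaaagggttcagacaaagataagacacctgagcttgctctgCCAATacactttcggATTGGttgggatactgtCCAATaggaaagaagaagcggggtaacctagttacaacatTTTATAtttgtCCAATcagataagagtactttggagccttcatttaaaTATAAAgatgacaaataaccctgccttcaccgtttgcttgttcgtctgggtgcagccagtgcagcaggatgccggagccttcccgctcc
RefSeq held a promoter for 57 of the 62 members. CCAAT was present in 49 of 57 (86.0%), against 37.4% of all 32851 promoters of the table. It was in every window of H1 (6), H2A (16), H2B (14) and H3 (10), and in 3 of 11 of H4. TATAAA was in 32 of 57 (56.1%), against 13.6% of all. The octamer was in 11 of 57 (19.3%), against 1.74% of all, and these were 6 of 16 H2A and 5 of 14 H2B windows. Many H2A and H2B genes are arranged head to head, so their windows can overlap, as those of Hist1h2ap and Hist1h2br do, and a motif can count for both.

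Clustered histone mRNA was more abundant in cycling than in resting cells of both libraries. The members summed to 5935 CPM in cycling cells, 510.5 CPM in intermediate cells and 409.1 CPM in resting cells of WT, and to 5689, 480.8 and 367.5 CPM in Mgl2DTR. The cycling level was 14.5-fold the resting level in WT (interval 14.3 to 14.7) and 15.5-fold in Mgl2DTR (15.2 to 15.8). Intermediate cells thus stayed near the resting level. At least 50 UMIs in each library were found for 56 members, and 50 of these were 2-fold or more higher in cycling cells in both libraries, with 0 lower. Among all 12352 genes with that many UMIs, 5.84% were called higher and 8.44% lower. The median log2 difference of the 56 was 3.54 in WT and 3.57 in Mgl2DTR, beside -0.13 and -0.15 for all genes. The minimum applies to UMIs summed over all cells, so a member could pass it through cycling cells alone.

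The classes differed in how far cycling cells stood above resting cells. The ratio was highest for H2A, with 106.5 CPM in resting and 2773 CPM in cycling WT cells (26.05-fold) and 101.7 and 2881 CPM in Mgl2DTR (28.3-fold). H3 was 16.7-fold higher in WT and 18.1-fold in Mgl2DTR. H1 was 12.01-fold and 13.3-fold higher, H4 8.53-fold and 7.92-fold, and H2B 6.83-fold and 5.68-fold. A few members carried most of the signal. Of 405470 UMIs of members, 17.9% were of Hist1h2ae, 49.3% of Hist1h2ae, Hist1h2ap and Hist1h1b together, and 75.6% of the 10 most abundant. By class, H2A held 45.5%, H1 24.7%, H4 13.1%, H3 8.85% and H2B 7.83%. These are shares of captured molecules and say nothing of untailed mRNA.

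The same direction was seen in each of the 10 cell types. In T cell or thymocyte-like cells the summed members were 14.3-fold higher in cycling than in resting cells of WT and 17.1-fold in Mgl2DTR, at cycling levels of 8735 and 8608 CPM. Only NK-like cells of WT had a higher cycling level, 10136 CPM on 11 cells. The ratios were 15 and 16.4 in cDC1-like cells and 15.5 and 15.5 in cDC2-like cells. Neutrophil-like cells gave 14.8 and 14.4, and pDC-like cells 12.5 and 14.2. Macrophage-like cells gave 16.6 in WT and 9.20 in Mgl2DTR. Monocyte-like (16.7 and 16.5), activated DC-like (13.6 and 8.14), B cell-like (10.2 and 16.1) and NK-like cells (19.8 and 10.9) rest on as few as 42, 25, 36 and 11 cycling cells in the smaller library. Cells called doublets from their neighbours made up 23.3% to 69.4% of the cycling cells of a named type. Without them the ratio over all cells was 16.5 in WT and 16.3 in Mgl2DTR, and the types ran from 6.99 (activated DC-like cells of Mgl2DTR, 9 cycling cells) to 26.3 (NK-like cells of WT, 6 cycling cells). Over 1.5-fold moves came in pDC-like cells of WT (21.6) and B cell-like cells of WT (19.7).

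Members were placed by the ratio of their resting to their cycling level over cells of all types together, a description made on these same values. A member was cycling-bound when the ratio was under 0.1 in both libraries, also resting when it was 0.25 or more in both, and between otherwise. Cycling-bound were 28 members (1.63% of all genes), between were 22 (2.06%) and also resting were 6 (96.3%), while 6 were too low to place. With limits of 0.05 and 0.5 in place of these, 18 members were cycling-bound. By class, 10 of 14 placed H2A genes, 9 of 16 H2B, 5 of 9 H3, 2 of 5 H1 and 2 of 12 H4 genes were cycling-bound. The 6 too low to place were Hist1h1t, the testis H1, with Hist1h2ah, Hist1h2ao, Hist1h3h, Hist2h3c1 and Hist2h3c2. Just inside the lower limit lay Hist1h2bl (0.084 in WT and 0.027 in Mgl2DTR), and just outside it Hist1h4d (0.088 and 0.101). Just under the upper limit lay Hist1h4i (0.273 and 0.248) and Hist2h2ab (0.303 and 0.233).

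**Figure D1:**
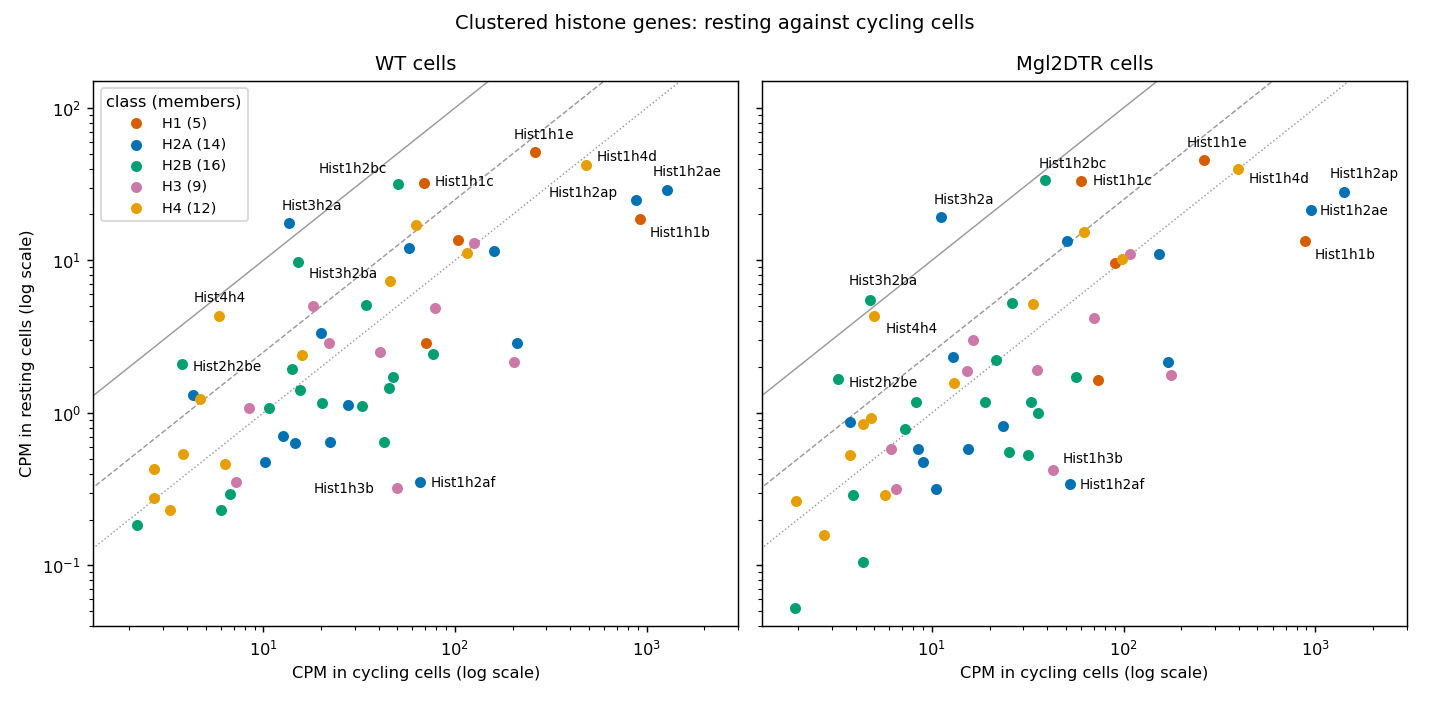
Level of each placed member in cycling cells (horizontal, CPM, log scale) against resting cells (vertical, CPM, log scale), in WT (left) and Mgl2DTR (right). Points are single members coloured by class, the solid line marks equal levels, the dashed line a resting to cycling ratio of 0.25 and the dotted line 0.1. Hist3h2a lies above the solid line in both libraries, while Hist1h2af and Hist1h3b lie far below the dotted line.

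The H1 genes spanned the whole range. Hist1h1b (histone H1.5) had 925 CPM in cycling and 18.8 CPM in resting WT cells, and 888 and 13.4 CPM in Mgl2DTR, a 49.3-fold and a 66.2-fold difference. Hist1h1e (H1.4) had 263 and 51.6 CPM in WT and 264 and 45.6 CPM in Mgl2DTR, 5.09-fold and 5.80-fold. Hist1h1c (H1.2) had 68.9 and 32.3 CPM in WT and 60.3 and 33.0 CPM in Mgl2DTR, 2.13-fold (interval 2.01 to 2.26) and 1.83-fold (1.69 to 1.97). Linker histone genes of 1 cluster thus ran from cycling-bound to also resting.

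Among the H2A genes, Hist1h2ae was the most abundant member in WT, at 1278 CPM in cycling and 28.9 CPM in resting cells, with 945.2 and 21.4 CPM in Mgl2DTR (44.1-fold in each). Hist1h2ap had 874.7 and 24.8 CPM in WT and 1413 and 27.9 CPM in Mgl2DTR, 35.3-fold and 50.5-fold. Hist1h2ab had 212 and 2.88 CPM in WT and 171 and 2.16 CPM in Mgl2DTR, 73.6-fold and 79.4-fold. The sharpest contrast of the family was in Hist1h2af, with 65.6 CPM in cycling and 0.354 CPM (23 UMIs) in resting WT cells, and 52.8 and 0.342 CPM (13 UMIs) in Mgl2DTR. That is 185-fold (interval 123 to 293) and 154-fold (89.9 to 290). Even so, no placed member was at 0 UMIs in resting cells of either library.

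Of the H2B genes, Hist1h2bj had 77.3 and 2.42 CPM in WT and 56.6 and 1.71 CPM in Mgl2DTR. Hist1h2bb had 47.4 and 1.72 CPM in WT and 33.1 and 1.18 CPM in Mgl2DTR. These lie 27.5-fold to 33.1-fold apart. The most abundant H2B gene, Hist1h2bc, behaved otherwise and is described with the resting cells.

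The H3 genes held 5 of the cycling-bound members. Hist1h3c had 203 and 2.15 CPM in WT and 178 and 1.76 CPM in Mgl2DTR (94.0-fold and 101-fold). Hist1h3b had 49.7 and 0.323 CPM in WT and 43.0 and 0.421 CPM in Mgl2DTR (154-fold and 102-fold). Hist1h3f had 79.1 and 4.85 CPM in WT, and Hist1h3e 126 and 13.01 CPM, so that the latter was placed between.

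The H4 genes were mostly between. Hist1h4d had 480 and 42.4 CPM in WT and 393 and 39.7 CPM in Mgl2DTR (11.3-fold and 9.90-fold). Hist1h4h had 116 and 11.2 CPM in WT and 97.9 and 10.2 CPM in Mgl2DTR. Hist1h4i had 62.5 and 17.0 CPM in WT and 62.2 and 15.4 CPM in Mgl2DTR (3.67-fold and 4.03-fold). Only Hist1h4f and Hist1h4k were cycling-bound in this class.

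The 6 members seen in resting cells at 0.25 or more of their cycling level comprised 1 H1, 1 H2A, 3 H2B and 1 H4 gene, and none of H3, and lay in all 4 clusters. Hist3h2a was the one with more mRNA in resting than in cycling cells of both libraries, at 17.7 against 13.6 CPM in WT and 19.3 against 11.2 CPM in Mgl2DTR. Hist1h2bc had 50.7 CPM in cycling, 56.8 in intermediate and 31.7 in resting WT cells, and 39.1, 62.8 and 33.5 CPM in Mgl2DTR. Its highest level was thus in the intermediate class of both libraries. Hist4h4 had 5.87 and 4.29 CPM in WT and 5.01 and 4.29 CPM in Mgl2DTR, and Hist2h2be 3.78 and 2.09 CPM in WT and 3.25 and 1.66 CPM in Mgl2DTR. Hist3h2ba had 15.2 and 9.73 CPM in WT, but 4.77 and 5.53 CPM in Mgl2DTR, where the interval of its ratio (0.683 to 1.09) spans equality. All 6 were placed alike under 7 alternatives in scaling, cells kept and cycle cuts. In 5 of these, 1 or both of Hist1h4i and Hist2h2ab joined them. With the upper limit at 0.5, Hist1h1c no longer qualified, at 68.9 CPM in cycling and 32.3 CPM in resting WT cells. Cell type make-up differed between the classes: cDC1-like cells were 811 of 2035 cycling and 1066 of 7294 resting WT cells. By the values per type below, Hist3h2ba was higher in cycling than in resting cDC1-like cells of both libraries. In T cell or thymocyte-like and pDC-like cells of Mgl2DTR it was lower. The part of make-up in the placement was not tested.

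The annotated 3′ end went with the placement. Of 19 placed members whose model ends within 100 bases of the stem-loop, 14 were cycling-bound and 0 also resting, with a median resting to cycling ratio of 0.047 in WT and 0.053 in Mgl2DTR. Of 11 whose model ends at the stop codon, 10 were cycling-bound and 0 also resting (medians 0.041 and 0.030). Of 16 whose model runs more than 100 bases past the stem-loop, 3 were cycling-bound and 4 also resting (0.143 and 0.148). Of 10 in which no stem-loop was found, 1 was cycling-bound and 2 also resting (0.146 and 0.138). The search allowed 2 mismatches, and each H4 element found already held 2. An H4 element with a further change was thus out of reach, and Hist1h4a, Hist1h4b, Hist1h4i, Hist1h4j and Hist2h4 are among these 10. The models of Hist2h3b and Hist1h1a end 37 and 48 bases after the stop codon, too short for some of the loop positions seen. The also resting members have a median of 1290 bases after the stop codon, and 5 of 6 hold AATAAA or ATTAAA in their last 50 bases. For the members between, the median is 398.5 bases and 7 of 22 hold such a signal. For the cycling-bound these are 69.5 bases and 2 of 28. The models of 10 of these 28, and of 1 of the 22, end at the stop codon. In those models no signal past the stop could be found, whatever the mRNA holds. Hist1h2ae goes against this order: its model runs 151 bases past the loop and holds a poly(A) signal, and its resting level was 44.1-fold under its cycling level. Hist1h2ae and Hist3h2a carry the same 16 letters above, so the element alone does not separate the placements. Members with short models also share more sequence with other genes: the median share of 50-base stretches found in another gene was 56.7% for the cycling-bound, 36.2% for those between and 15.3% for the also resting. The part of sharing in the ratios was not tested per member.

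**Figure D2:**
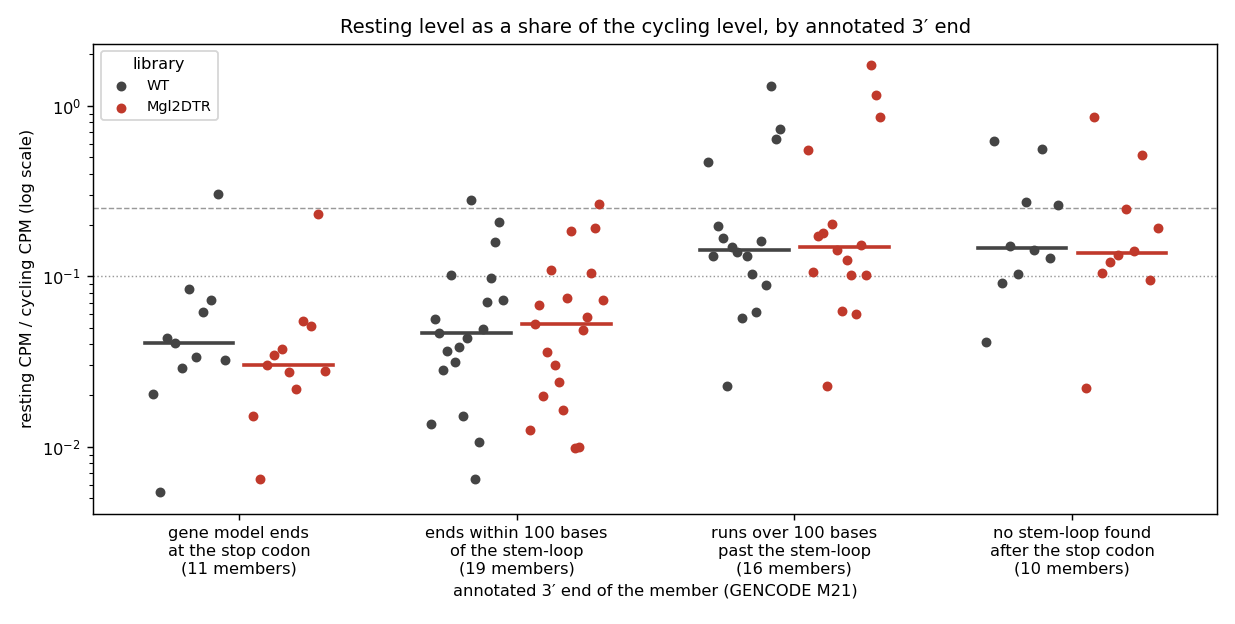
Resting over cycling level of each placed member (vertical, log scale) by where its GENCODE M21 model ends (horizontal groups), in WT and Mgl2DTR. Points are single members coloured by library, thick bars are medians, and the dashed and dotted lines mark 0.25 and 0.1. Members ending at the stop codon or near the stem-loop sit mostly below 0.1. The 6 also resting members have models that run past the loop or in which none was found.

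Within the cycling cells, levels followed the balance of S and G2/M genes. Cells were ordered by the S-phase share of their cycle-gene UMIs and split in 5 bins of equal number over both genotypes, with median S shares in WT of 5.56%, 13.8%, 27.7%, 49.4% and 69.6%. The summed members stood at 2222, 6594, 9258, 9147 and 2301 CPM over the bins in WT, and at 1445, 5018, 7166, 8559 and 3184 CPM in Mgl2DTR. Levels were therefore low at both ends and high in bins 3 and 4. Pcna, the sliding clamp of DNA polymerase, was highest in bin 4 of WT (434 CPM, and 404 in bin 5) and nearly level in bins 4 and 5 of Mgl2DTR (391 and 395). Slbp had 250 and 225 CPM in these bins of WT and 258 and 257 in Mgl2DTR. Mcm6, of the replicative helicase, was highest in bin 5 (196 and 214), beyond the histone peak. H1 and H2A genes were highest in bin 4 in both libraries and H4 genes in bin 3 in both, while H2B and H3 genes were highest in bin 3 in WT and in bin 4 in Mgl2DTR. Bin 3 was the highest of the summed members in WT, but bin 4 was with cycle cuts of 10 and 40, without cells of low hashtag margin or without cluster 19, a pDC-like cluster of mixed markers.

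**Figure D3:**
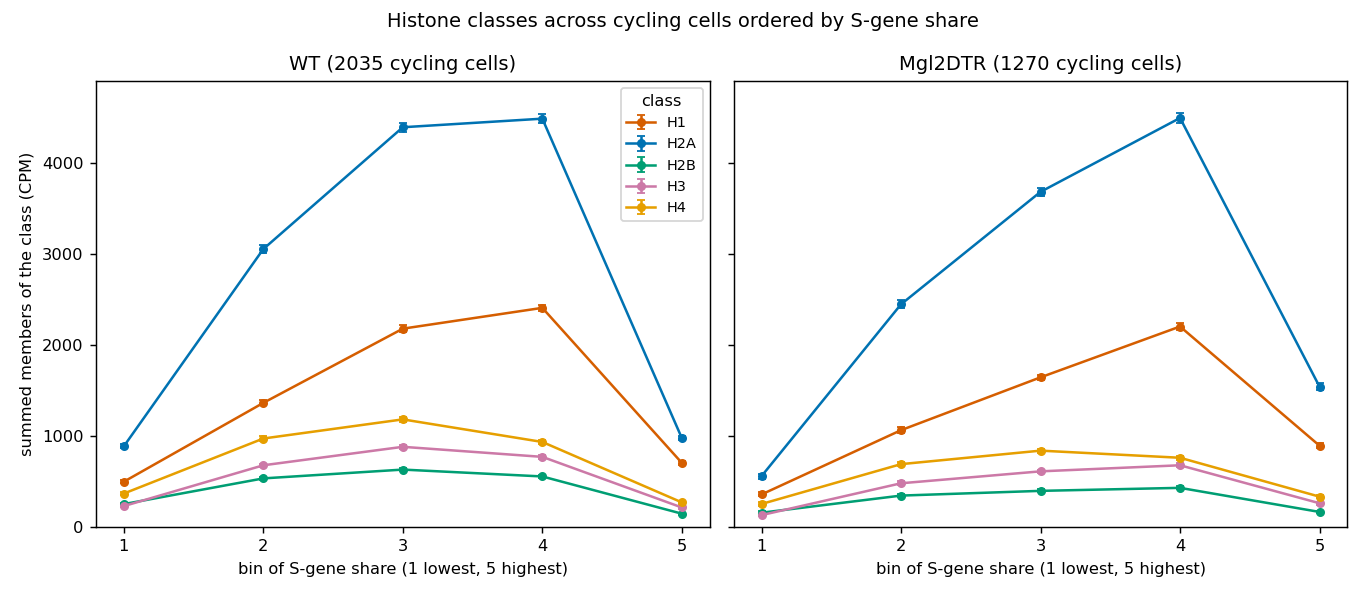
Level of the members, summed by class (vertical, CPM), over 5 bins of cycling cells in WT and Mgl2DTR. Bins are ordered by S-phase share (horizontal, low to high). Error bars are 95% counting intervals. Every class is highest in bin 3 or bin 4, and the H2A line stands above the others in all bins.

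Hist1h1b had 236 CPM in bin 1 and 1679 CPM in bin 4 of WT, and 153 and 1507 CPM in Mgl2DTR. Hist1h1a (H1.1) had 10.9 and 146 CPM in WT and 5.03 and 139 CPM in Mgl2DTR, 13.4-fold and 27.5-fold. Hist1h4d peaked at a lower S share, in bin 3, at 784 (WT) and 548 CPM (Mgl2DTR). Of the also resting members, Hist1h1c was highest in bin 3 in WT (94.0 CPM) and in bin 2 in Mgl2DTR (72.6 CPM). Hist1h2bc was highest in bin 1 and lower in each bin after it, with 74.9, 68.8, 47.4, 38.9 and 18.6 CPM in WT and 63.1, 48.5, 39.9, 35.4 and 17.1 CPM in Mgl2DTR. Hist3h2a was highest in bin 2 in both libraries (19.7 and 17.4 CPM), and its lowest level was 5.90 CPM, in bin 5 of WT. Hist3h2ba was likewise highest in bin 2 (24.3 and 6.93 CPM), and Hist4h4 and Hist2h2be in bin 2 of WT (7.32 and 4.79 CPM) and bin 1 of Mgl2DTR (6.71 and 4.36 CPM).

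Resting cells of different types held different members. Hist1h2bc, a spliced H2B gene by its model, was highest in neutrophil-like cells, at 82.9 CPM in WT (interval 68.9 to 98.8) and 109 CPM in Mgl2DTR (97.0 to 121). Macrophage-like (62.4 and 48.6 CPM) and activated DC-like cells (46.3 and 53.9) followed, with intervals that overlap in Mgl2DTR. Monocyte-, B cell- and cDC2-like cells lay between 21.7 and 29.5 CPM with overlapping intervals. T cell or thymocyte-like cells had 15.7 and 22.6 CPM, cDC1-like cells 21.7 and 16.5, pDC-like cells 14.0 and 21.1, and NK-like cells 12.5 and 4.14 on 8 and 1 UMIs. Resting neutrophil-like cells thus held 3.82 times the level of resting cDC1-like cells in WT and 6.56 times in Mgl2DTR.

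Free RNA in droplets can give UMIs in cells that do not express a gene, so shares of cells were compared with cells thinned to 2000 UMIs. A Hist1h2bc UMI was found in 13.2% of 212 resting neutrophil-like cells of WT and 19.9% of 357 of Mgl2DTR (interval 15.9 to 24.4), and in 3.07% and 4.01% of pDC-like cells. In the Mgl2DTR cells of neutrophil-like cluster 8 the share was 30.7% of 179 cells (24.1 to 38.0), with 247 shallower cells left out. Before thinning the shares for neutrophil-like cells were 25% and 32.2% at median depths of 3938.5 and 2196 UMIs, and for pDC-like cells 8.68% and 11.8% at 6173 and 6108.5 UMIs. The cycling-bound Hist1h2ae gave 5.03% (2.32 to 9.33) in cluster 8 and 4.47% (3.06 to 6.29) in resting cDC1-like cells of Mgl2DTR. The intervals of these shares overlap. By type, the resting level of Hist1h2ae ran from 13.4 CPM in neutrophil-like to 55.6 CPM in T cell or thymocyte-like cells of WT, and the part of free RNA in it was not tested.

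Hist3h2a was highest in pDC-like cells, at 32.2 CPM in WT (interval 28.3 to 36.5) and 34.9 CPM in Mgl2DTR (30.6 to 39.7), and lowest in neutrophil-like cells, at 7.35 (3.67 to 13.2) and 8.60 CPM (5.56 to 12.7). After thinning, 6.57% and 6.64% of pDC-like cells held a UMI, against 0.472% and 2.24% of neutrophil-like cells. Hist4h4 (10.7 and 13.9 CPM) and Hist2h2be (6.14 and 4.49 CPM) were likewise highest in pDC-like cells. Hist3h2ba was highest in T cell or thymocyte-like cells (24.8 and 21.7 CPM), followed by pDC-like cells (18.0 and 11.4), and stood at 3.17 and 2.64 CPM in cDC1-like cells. Hist1h1c ran between 24.9 CPM in cDC1-like and 52.1 CPM in neutrophil-like cells of WT. Hist1h1e, which was placed between, was highest in NK-like cells, at 128 and 149 CPM. Hist2h2aa1, an H2A gene of the Hist2 cluster, was highest in neutrophil-like cells, at 23.4 (WT) and 32.0 CPM (Mgl2DTR).

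**Figure D4:**
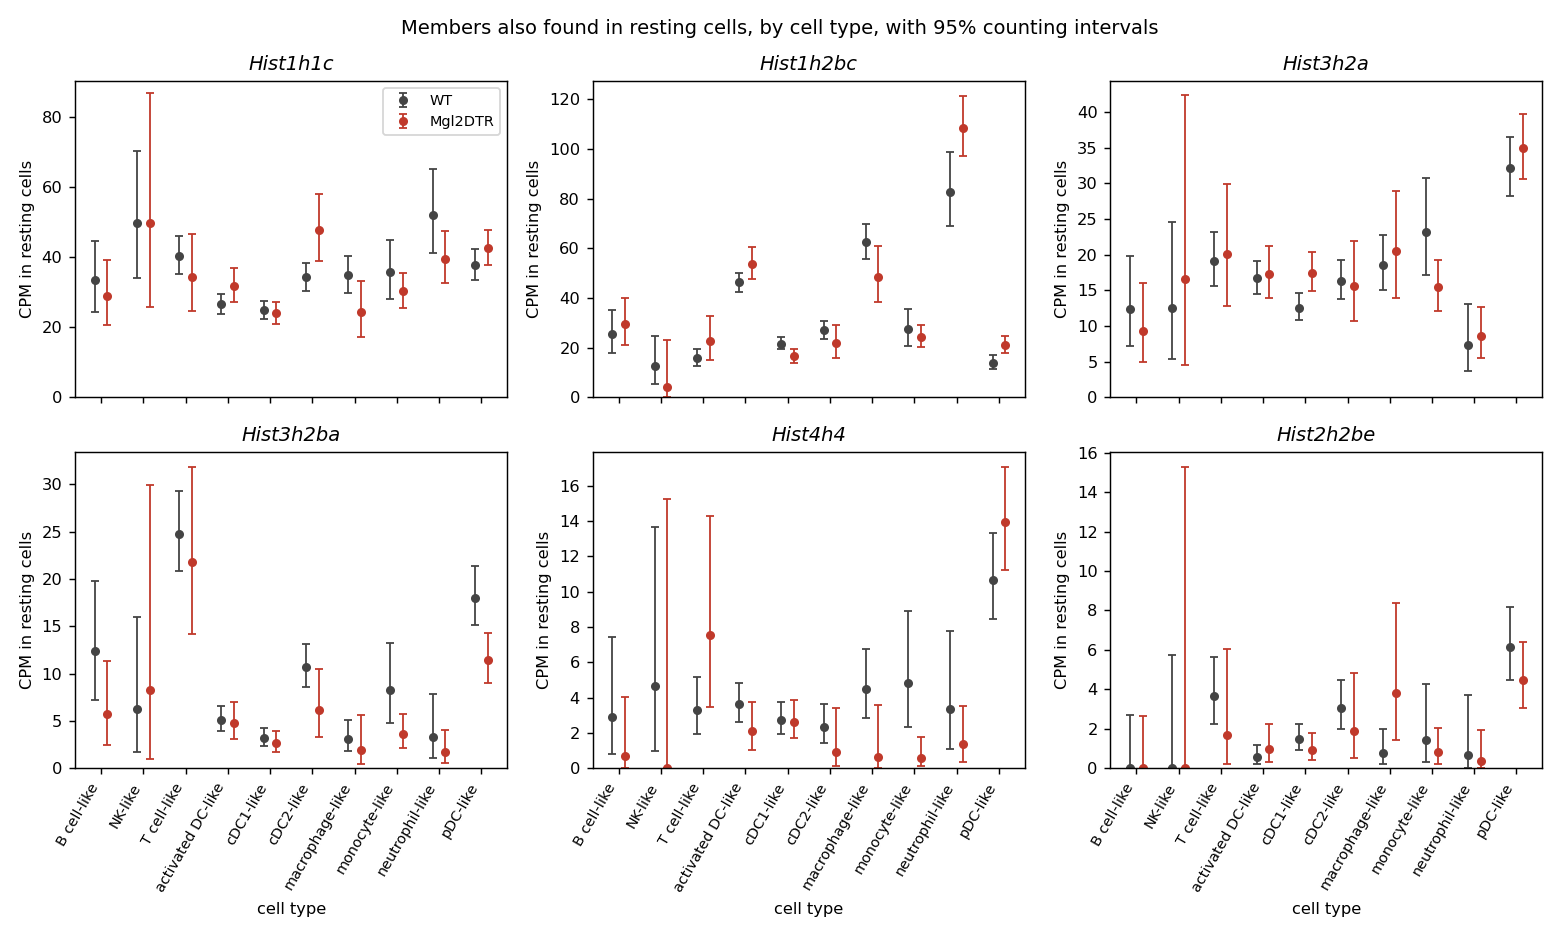
Level in resting cells (vertical, CPM) of the 6 also resting members in each cell type (horizontal), in WT and Mgl2DTR, with 95% counting intervals. Hist1h2bc stands highest in neutrophil-like cells (82.9 and 109 CPM) and Hist3h2a in pDC-like cells (32.2 and 34.9 CPM).

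Between the genotypes, the summed members of cycling cells were nearly level, at 0.959 times the WT level in Mgl2DTR (interval 0.952 to 0.965), and between 0.850 and 1.00 under the alternatives. H2A genes stood at 1.04 (1.03 to 1.05), but at 0.941 with every cell scaled to the same total. The H2A value leans on Hist1h2ap (1.62), whose level is uncertain, as given below. Every other measured H2A gene stood below 1, from 0.640 (Hist1h2ah) to 0.959 (Hist2h2ac). The near-level sum of all members includes Hist1h2ap too. With Hist1h2ap left out, its ratio was 0.607 to 0.827 in bins 1 to 4 of S-phase share and 1.23 in bin 5. H1 genes stood at 0.962, H3 at 0.863, H4 at 0.839 and H2B at 0.758 (0.738 to 0.779). Of 58 members with at least 50 UMIs, 2 were higher by 1.5-fold or more, against 6.74% of all 11810 genes, and 5 were lower, against 6.16%. Those shares are near the background. Yet 53 of 58 lay below 1, with 38 intervals below 1 and 3 above, while 53.3% of all genes lay below 1. The members' median log2 difference was -0.26, beside -0.02 for all genes. With every cell scaled to the same total, 19 members were called lower and 1 higher, and without cells called doublets 10 were lower and 1 higher. When the cells with the weaker hashtag signal were left out, 2 were lower and the summed ratio was 1.00. A level per cell and a make-up of cells that differs between the libraries cannot be told apart in these sums.

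The members called higher were 2 neighbours. Hist1h2ap had 874.7 CPM in WT and 1413 CPM in Mgl2DTR, 1.62-fold (1.59 to 1.64), on 66264 UMIs. Hist1h4n had 2.71 and 4.81 CPM, 1.78-fold (1.35 to 2.35). Hist1h2br, which starts next to Hist1h2ap in the opposite direction and whose promoter window overlaps the one printed above, had 15.6 and 21.6 CPM, 1.38-fold, under the limit. These 3 genes are adjacent, within chr13:21831767-21837530, with 0 other members among them. The next member before them, Hist1h2ao, had 0.310 and 0.401 CPM and too few UMIs to be measured (1.29, interval 0.492 to 3.35), and the next after them, Hist1h2ah, stood at 0.640 (0.345 to 1.14). Each of the 3 has a near copy: 93.1% of the 50-base stretches of Hist1h2ap are also in Hist1h2ao, 93.2% of those of Hist1h2br in Hist1h2bq and 83.2% of those of Hist1h4n in Hist1h4m. The other two copies, Hist1h2bq and Hist1h4m, have no row in the tables. No source used here gives how reads were divided among copies, so these levels are uncertain and the part of the copies in the ratios was not tested. Without Hist1h2ap the sum over the other members was lower in Mgl2DTR in 4 of the 5 bins, as given below.

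The members called lower were Hist3h2ba, Hist1h2bp, Hist1h2bg, Hist1h2ah and Hist1h2ac. Hist3h2ba had 15.2 CPM in WT and 4.77 CPM in Mgl2DTR, 0.314 times (interval 0.256 to 0.384), the furthest from 1 of the family. Its neighbour Hist3h2a stood at 0.825 times, and the adjacent gene Rnf187 had 80.0 and 71.5 CPM. Hist1h2bp had 6.71 and 3.89 CPM, Hist1h2bg 14.1 and 8.30 CPM (0.590), and Hist1h2ac 19.99 and 12.9 CPM (0.646). Hist1h2ah had 1.13 and 0.722 CPM, and its interval (0.345 to 1.14) spans 1. The most abundant member, Hist1h2ae, had 1278 and 945.2 CPM, 0.740 times, which did not reach the limit.

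**Figure D5:**
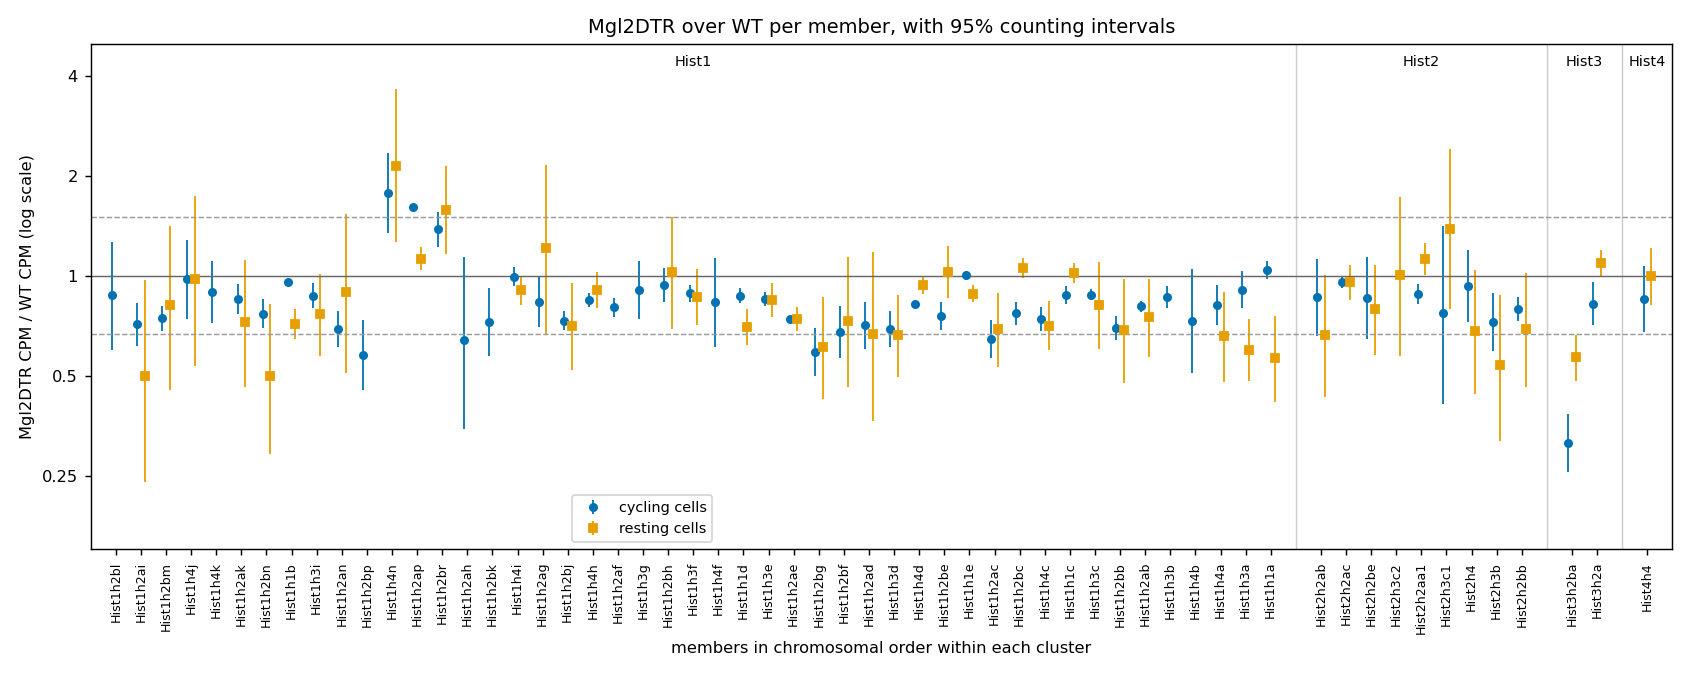
Mgl2DTR over WT level of each measured member (vertical, log scale) in chromosomal order within the Hist1, Hist2, Hist3 and Hist4 clusters (horizontal), for cycling cells (circles) and resting cells (squares) with 95% counting intervals. Dashed lines mark 1.5-fold either way. Most points lie below 1, while the adjacent Hist1h4n, Hist1h2ap and Hist1h2br lie above it in both cell classes (Hist1h2ap in resting cells at 1.13, or 0.876 with cells scaled to the same total), and Hist3h2ba is the lowest in cycling cells.

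Within cell types with at least 50 cycling cells in each library, Hist1h2ap was higher in Mgl2DTR by more than 1.5-fold in 5 of 6. It had 1371 and 2439 CPM in T cell or thymocyte-like cells (1.78-fold), 778 and 1246 CPM in cDC1-like (1.60), 781 and 1207 in cDC2-like (1.55), 1022 and 1723 in neutrophil-like (1.69) and 833 and 1330 in pDC-like cells (1.60). In macrophage-like cells it had 869 and 874 CPM. With cells scaled alike these 6 ratios all stayed above 1, at 1.62, 1.61, 1.48, 1.58, 1.44 and 1.07. Without cells called doublets they were 1.44, 1.60, 1.32, 1.496, 0.805 and 1.20, so that the direction turned in pDC-like cells and only cDC1-like cells stayed past 1.5-fold. Hist3h2ba was lower in all 4 types in which it was measured. It had 34.5 and 5.73 CPM in T cell or thymocyte-like cells (0.166), 17.7 and 4.68 in cDC2-like (0.265), 22.0 and 5.83 in pDC-like (0.265) and 10.0 and 6.04 CPM in cDC1-like cells (0.604). With cells scaled alike these were 0.103, 0.506, 0.243 and 0.545, and without called doublets 0.151, 0.167, 0.137 and 0.644. In T cell or thymocyte-like and cDC2-like cells the Hist3h2ba ratios rest on few Mgl2DTR UMIs, from 73 and 60 cycling cells. Whether the ratios differ between types was not tested.

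In cDC1-like cells, the type with most cycling cells, the summed members stood at 0.965 (0.954 to 0.976). Of 55 members measured, 3 were higher (all genes 1.94%) and 4 lower (2.04%), and 46 lay below 1. The higher were Hist1h4n (2.12 and 4.71 CPM), Hist1h2br (14.6 and 23.8) and Hist1h2ap, so all 3 adjacent genes passed here. The lower were Hist2h2ab (5.44 and 3.26 CPM), Hist3h2ba, Hist1h2ac (19.1 and 11.96) and Hist1h2ad (12.9 and 8.58).

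In T cell or thymocyte-like cells the sum was 0.985, or 0.828 with cells scaled alike and 0.770 without cells called doublets. Of 45 members, 1 was higher (6.33%) and 8 lower (7.42%). Beside Hist3h2ba, the furthest were Hist1h2bf (17.1 and 3.44 CPM, 0.201), Hist1h2bk (12.5 and 3.44), Hist1h2an (34.1 and 19.5) and Hist2h3b (16.9 and 10.3). Hist1h2bf and Hist1h2bk rest on 3 UMIs in Mgl2DTR, with intervals of 0.0404 to 0.611 and 0.0550 to 0.851. In cDC2-like cells the sum was 0.936, or 0.885 with cells scaled alike and 0.813 without cells called doublets. Of 43 members, 2 were higher (6.81%), Hist1h2br and Hist1h2ap, and 9 lower (9.16%). Of the latter, Hist1h3d had 15.4 and 3.51 CPM, Hist2h2bb 44.1 and 18.7 CPM, Hist1h2bg 12.7 and 3.51 CPM and Hist1h3b 52.2 and 28.1 CPM. Hist1h3d and Hist1h2bg, at 3.51 CPM, rest on few UMIs in Mgl2DTR. Mgl2 marks cDC2 cells, and the cDC2-like type held 306 cycling cells in WT and 60 in Mgl2DTR.

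Among the types with at least 50 cycling cells in each library, the genotype ratio of the sum was lowest in macrophage-like cells. Their summed members had 5521 CPM in WT and 3418 CPM in Mgl2DTR, 0.619 times (0.593 to 0.646), with 0 of 27 members higher (8.97%) and 19 lower (6.17%). The ratio was 0.687 with cells scaled alike and 0.674 without cells called doublets, where pDC-like cells stood lower, at 0.590. The furthest were Hist1h2af (50.8 and 16.8 CPM, 0.331), Hist1h2ab (201 and 67.3, 0.335), Hist1h3e (115 and 42.1), Hist2h2bb (41.6 and 15.6) and Hist1h2be (32.5 and 13.2). Alongside, the median depth of these cells was 17224 UMIs in WT and 8930 in Mgl2DTR, their S-phase share 28.5% and 36.8%, and their share called doublets 51.8% and 51.6%. The part of depth and phase in the lower level was not tested. Of the types with fewer cycling cells, activated DC-like (4810 CPM in WT and 2761 in Mgl2DTR), NK-like (10136 and 5838) and monocyte-like cells (7774 and 5319) were also lower in Mgl2DTR. B cell-like cells were higher there, at 4424 and 7083 CPM.

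In neutrophil-like cells the sum was 1.07 (1.05 to 1.10), or 0.973 without cells called doublets, with 2 of 38 members higher (8.94%), Hist1h1a (26 and 69.6 CPM, 2.68-fold) and Hist1h2ap, and 5 lower (8.93%). Of these, Hist1h3d had 23.7 and 9.15 CPM, Hist1h2ac 23.2 and 9.35, Hist1h2bc 49.2 and 22.1, Hist1h2bg 11.1 and 6.37 and Hist1h2bb 45.0 and 26.7 CPM. Cluster 15 held 60.2% of the WT cells and cluster 33 held 50% of the Mgl2DTR cells, so that different clusters make up most of the type in each library. In pDC-like cells the sum was 1.10 (1.07 to 1.12), or 0.590 without cells called doublets and 0.979 with cells scaled alike, with 4 of 47 higher (12.9%) and 3 lower (15%). The higher were Hist1h2ag (5.30 and 12.2 CPM), Hist1h2ap, Hist1h2br (11.8 and 18.7) and Hist1h1a (58.7 and 92.0), and the lower Hist3h2ba, Hist1h2bf (10.2 and 6.17) and Hist1h3d (26.9 and 17.5). Cluster 19, named by only 3 markers, held 48.9% of this type in WT and 84.4% in Mgl2DTR.

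Across the bins of S-phase share the genotype ratio of the summed members was not even. It was 0.650 in bin 1, 0.761 in bin 2, 0.774 in bin 3, 0.936 in bin 4 and 1.38 (1.35 to 1.42) in bin 5, the bin richest in S-phase genes. Without Hist1h2ap the values were 0.607, 0.674, 0.679, 0.827 and 1.23. Hist1h2ap itself ran from 0.948 to 1.31, 1.32, 1.51 and 2.24, and Hist1h2ae from 0.429 to 0.556, 0.582, 0.725 and 1.17. Both ratios were higher in each bin than in the one before, and Hist1h2ap stood above 1 in 4 bins where Hist1h2ae stood above 1 in 1. Hist3h2ba did not follow, at 0.362, 0.285, 0.287, 0.360 and 0.371. The bins held 370 to 460 cells in WT and 201 to 291 in Mgl2DTR, and the part of cell type make-up in this pattern was not tested.

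In resting cells the summed members stood at 0.898 times the WT level in Mgl2DTR (0.880 to 0.917). Of 49 members measured, 2 were higher (all genes 6.51%) and 10 lower (5.78%), and 37 lay below 1, beside 54.5% of all genes. The higher were Hist1h4n (0.431 and 0.921 CPM, 2.14-fold) and Hist1h2br (1.42 and 2.24 CPM, 1.58-fold), the same pair that flanks Hist1h2ap. The furthest of the lower were Hist1h2ai (0.631 and 0.316 CPM), Hist1h2bn (1.11 and 0.553), Hist2h3b (1.08 and 0.579), Hist1h1a (2.89 and 1.63) and Hist3h2ba (9.73 and 5.53). Of these 5, 3 are cycling-bound members whose resting levels are low (Hist1h2ai, Hist1h2bn and Hist1h1a). Scaling every cell alike gave 20 lower, and a minimum of 200 UMIs gave 0 higher and 5 lower.

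By type, the genotype ratio of the resting sum was lowest in monocyte-like cells, at 466 (WT) and 322 CPM (Mgl2DTR) (0.691, interval 0.637 to 0.749). There, 0 of 14 members were higher (11.1%) and 5 lower (10.2%): Hist1h2ae (32.9 and 15.8 CPM), Hist1h1d (17.9 and 8.62), Hist1h3e (14.0 and 7.82), Hist1h1e (76.0 and 49.1) and Hist3h2a (23.2 and 15.4). In T cell or thymocyte-like cells (0.821), 0 of 18 were higher (4.88%) and 3 lower (8.09%), namely Hist1h4c, Hist1h3a and Hist1h2ae. In cDC1-like cells (0.882), 1 of 30 was higher (1.76%), Hist1h2br, and 3 lower (2.29%), Hist1h3a, Hist1h3d and Hist2h2ab. Macrophage-like cells ran the other way, at 1.12 (1.02 to 1.23), with 4 of 11 higher (6.21%) and 1 lower (4.49%, Hist1h1b). The higher were Hist1h2ap (19.2 and 48.0 CPM), Hist1h4i (16.2 and 38.4), Hist1h4d (26.02 and 44.8) and Hist1h4h (6.65 and 10.9). In cDC2-like cells (0.937), Hist2h2aa1 was higher (4.89%) and Hist1h4i, Hist1h2ae and Hist3h2ba were lower (7.94%). In activated DC-like cells (0.956), 0 of 21 were higher (3.32%) and 5 lower (3.61%), among them Hist1h2ac, Hist4h4 and Hist2h2ac. The largest cluster of resting activated DC-like cells was cluster 7 in WT (40.6%) and cluster 4 in Mgl2DTR (52.2%), so these calls compare different clusters in part. In pDC-like cells (0.965), Hist1h2bc was higher (14.0 and 21.1 CPM, all genes 3.16%) and Hist3h2ba and Hist1h2be were lower (2.23%). In B cell-like cells (1.01) Hist1h2ap was the only 1 of 8 called higher (24.0 and 47.6 CPM, all genes 9.37%) and 0 were lower (5.28%), and in neutrophil-like (1.11) and NK-like cells (1.05) 0 of 9 and 0 of 2 members were called, where 8.26% and 5.47% of all genes were higher and 7.47% and 8.65% lower. Resting neutrophil-like cells lay mostly in cluster 15 in WT (60.5%) and in cluster 8 in Mgl2DTR (70.3%).

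Genes that make or handle histones were looked at beside the members. Of 26 genes for histone mRNA processing and histone chaperones in the tables, 25 were measured and 9 were 2-fold or more higher in cycling cells of both libraries, with 0 lower. Slbp had 142 CPM in cycling and 43.3 CPM in resting WT cells, and 169 and 47.5 CPM in Mgl2DTR. The chaperone Asf1b, which hands H3 and H4 to assembly factors, was 30.7-fold and 38.1-fold higher. Chaf1a and Chaf1b, of the assembly factor that follows the replication fork, were 8.16-fold and 14.1-fold, and 5.07-fold and 6.98-fold higher. Nasp, a chaperone of free H3 and H4, was 3.87-fold and 5.63-fold higher. Hat1, which acetylates new H4, the FACT subunit Ssrp1, the 3′ exonuclease Eri1 and the U7 particle protein Lsm11 were 2.12-fold to 2.88-fold higher. The median log2 difference of the 25 was 0.67 in WT and 0.88 in Mgl2DTR.

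Replacement histones, which lie outside the clusters and have poly(A) mRNAs, gave 5 of 10 measured genes higher. H2afz had 3029 and 968 CPM in WT and 3004 and 915 CPM in Mgl2DTR, so that in captured molecules its resting level exceeded the sum of the clustered genes. H2afv was 3.58-fold and 3.64-fold higher, H2afx 12.1-fold and 9.40-fold, H1fx 4.54-fold and 3.60-fold, and Cenpa, the centromeric H3, 14.9-fold and 14.1-fold. H3f3b, an H3.3 gene, was level between the classes (1.03 and 0.975), and H2afj had 0.830 and 0.861 times its resting level in cycling cells. Of 35 cycle genes held out of the classing, 34 were higher in cycling cells and 12 were cycling-bound, with a median log2 difference of 2.63 in WT and 2.92 in Mgl2DTR, which set the scale of the classing itself. Between genotypes in cycling cells, H1fx alone of the 3 lists was called, at 0.573.

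The genes whose levels followed the summed members most closely over 23 groups of cell type and cycle class were Fbxo5, Pbk, Shcbp1, Neil3, Ncapg, Kif14, Stil, Ska1, Foxm1 and Ncaph. Fbxo5, an inhibitor of the anaphase-promoting complex, had a Pearson r of 0.986 in WT and 0.982 in Mgl2DTR on log2(CPM + 10), and Ncaph 0.967 and 0.979. The groups share their libraries and the split into cycling and resting cells, which most genes of the cycle follow. Single members differed in the same measure. The median r with the summed members was 0.949 in WT and 0.940 in Mgl2DTR for the cycling-bound. It was 0.875 and 0.824 for those between, and 0.421 and 0.154 for the also resting. Placement was made on the resting to cycling ratio of these same cells, and each member is part of the sum. This order of the placements was therefore largely set in advance. Hist3h2a ran lowest, at -0.10 and -0.34.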

How the data were processed

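Single-cell 3′ counts came from 1 pool of thymus cells with a hashtag library. The authors deposited whole-number counts (UMIs per gene and cell), unnormalized, in 2 tables, with an annotation whose hashtag call gives each cell's genotype and whose hashtag margin is a score from the deposited table. Per the submitters' processing notes, Cell Ranger 6.0.0, Seurat 4.0.4 and mm10 were used. The annotation used for counting, the handling of reads that match several genes and the doublet filter are not given in the sources used here. Of 11 annotation columns, 8 were not used. All 28926 UMI totals equalled those of the annotation.

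Cells were clustered (Leiden, resolution 1, 20 neighbours, 30 components, 2000 variable genes without members, cycle genes and Mgl2) and clusters were named from marker lists, at least 3 markers each, so cell types are rebuilt and not the authors'. Cells under 1000 UMIs were not classed by cycle. A cell was called a doublet when 12 or more of its 50 nearest cells were called as 2 hashtags. Such cells were kept in the sums and left out in an alternative. Levels are summed UMIs per 1000000 (CPM), with exact Poisson or conditional intervals. No test was run, since each genotype is 1 sample. Calls were 2-fold in both libraries or 1.5-fold between genotypes, at 50 UMIs or more. The members, lists and alternatives were chosen with earlier results of these data known. Named were the 3 members of each class with most UMIs, the also resting members, the 5 members furthest from 1 either way among those called in each comparison, members beside the limits, list members that were called and the 10 most similar genes. Alternatives were another scaling, cells kept, depth, cycle cuts, clustering, count minimum, limits and bins, and those on cluster 19, unnamed clusters, shared sequence and doublets within each type were chosen after seeing the data. On simulated data the scripts recovered fold changes larger than the limits used here, in genes with higher counts than the minimum. Changes near the limits, counts near the minimum and the need for both libraries to agree were not simulated. Python 3.11.15, numpy 2.4.6, scipy 1.17.1, scikit-learn 1.9.0, igraph 0.11.9 and leidenalg 0.10.2 were used, with GENCODE M21 transcripts and RefSeq promoters.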

Additional observations from a re-analysis of the deposited data

Results flagged for a closer look

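Mgl2DTR over WT ratios on opposite sides of 1 in different cell types, each past 1.5-fold, were found for 2 members. The difference between the cell types was not tested. In cycling cells Hist1h2ag stood at 0.633 (interval 0.343 to 1.09) in T cell or thymocyte-like cells and at 0.586 (0.207 to 1.35) in cDC2-like cells, but at 2.30 (1.26 to 4.51) in pDC-like cells. In resting cells Hist1h4i stood at 0.540 (0.311 to 0.887) in cDC2-like and at 2.36 (1.67 to 3.33) in macrophage-like cells.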

How the results depend on the processing

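No paired analysis was possible because each genotype is 1 sample, and for the same reason no replicate could be left out. The alternatives gave 69 values of main results within their counting interval or 1.5-fold of the count, 51 outside and 1 reversed. The summed members in cycling over resting cells of WT (14.5) gave 12.2 with cells scaled alike, 16.5 without called doublets, 14.8 at 2000 UMIs or more, 16.7 with cycle cuts of 10 and 40, 14.9 without unnamed clusters and 12.4 without members that share over 50% of their sequence. For Mgl2DTR (15.5) scaling gave 12.6, no doublets 16.3, other cuts 17.4 and no sharing members 12. Cycling-bound members numbered 18 with limits of 0.05 and 0.5 (28 otherwise). The Mgl2DTR over WT ratio in cycling cells (0.959) was 0.871 scaled, 0.883 without doublets, 0.929 with other cuts, 0.967 without cluster 19, 0.952 without unnamed clusters and 0.850 without sharing members, and reversed to 1.00 without cells of low hashtag margin. Members higher there (2) numbered 1 scaled and 1 without doublets, and lower (5) 19 scaled, 10 without doublets and 2 without low margins. In resting cells the ratio (0.898) was 0.840 scaled, 0.922 without low margins and 0.879 without sharing members. Members higher (2) numbered 1 without doublets, 1 without low margins and 0 at 200 UMIs, and lower (10) 20 scaled and 5 at 200 UMIs. Hist1h2ap in resting cells (1.13) reversed to 0.876 scaled. The highest over the lowest bin in WT (4.17) was 4.27 scaled, 4.29 without doublets, 4.06 at 2000 UMIs, 4.58 with other cuts, 4.98 without low margins, 4.68 without cluster 19, 3.97 without unnamed clusters and 2.48 with 3 bins. In Mgl2DTR (5.92) it was 5.19 scaled, 5.27 without doublets, 7.55 without low margins, 6.82 without cluster 19 and 2.45 with 3 bins. Resting Hist1h2bc in neutrophil-like over cDC1-like cells of WT (3.82) was 5.07 scaled, 2.98 without doublets and 5.12 without low margins. In Mgl2DTR (6.56) it was 11.6 scaled, 8.29 without doublets, 5.21 at 2000 UMIs, 5.28 with other cuts and 4.88 without low margins. The causes were not tested. Intervals cover counting error only, so spread between mice is unknown.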
